A study of Mus musculus with 33 samples.

Results

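Common lymphoid progenitors (CLP) were set against granulocyte-macrophage progenitors (GMP), 2 progenitor populations sorted from mouse bone marrow that stand at the head of the lymphoid and of the neutrophil and monocyte branch. The comparison took the 3 CLP libraries and the 3 GMP libraries of a table of raw read counts with 33 libraries from 11 populations, and it covered all genes. Both populations were depleted of lineage-positive cells with a depletion kit, stained, and sorted by flow cytometry, and polyadenylated RNA was sequenced. No genotype, treatment, strain, age or sort gate is given for either population in the sources used here, so the populations are known by their labels and by the transcripts below. Nothing in the labels says that the 3 libraries of a population came from separate mice. The p-values therefore cover only how libraries varied within populations, a spread estimated over all 33 libraries, and that variation may be technical.

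Lymphoid progenitors depend on signals through the interleukin 7 receptor, the cytokine receptor Flt3 and Notch, and they open the genes of antigen receptor recombination before they become B, T or innate lymphoid cells. Granulocyte-macrophage progenitors are driven by the transcription factors PU.1 and C/EBPα and fill their primary (azurophil) granules with myeloperoxidase and serine proteases, which neutrophils later use against microbes. Chromatin regulators of the Polycomb, MLL and remodelling families act in both branches.

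The 3 CLP libraries held 14935097, 14922636 and 22603806 counts, and the 3 GMP libraries held 19356749, 27757206 and 15594434. Between 13302 and 13420 genes reached 1 CPM (counts scaled to library size times its TMM factor) in CLP libraries, and between 11857 and 11978 in GMP libraries. The 10 most abundant genes took 5.01% to 5.12% of the counts of a CLP library and 14.97% to 15.09% of those of a GMP library. The TMM factors, which set the scale of all CPM levels, were 1.22 to 1.27 in CLP libraries and 0.576 to 0.605 in GMP libraries. Replicates lay close together (common biological coefficient of variation 1.83%), and small differences passed the test. CLP replicate 2 stood somewhat apart, with a chi-square per gene of 1.89 and 2.0 against the other CLP libraries, which gave 1.10 with each other.

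Of 20464 genes tested, 9380 were higher in CLP and 6489 were lower (edgeR's quasi-likelihood test, Benjamini-Hochberg adjusted p below 0.05), which is 45.8% and 31.7% of them and 77.5% in all. By 2-fold or more, 7529 genes were higher (36.8%) and 4429 lower (21.6%), 58.4% in all. The median log2 fold change of all genes, always given as CLP over GMP, was 0.41 with quartiles of -0.94 and 2.31. With library size as the only scaling this median was 1.47, and 13219 genes were then higher and 3352 lower, so a fold change of a single gene is best read against the median of all genes. In 77.7% of the genes the 3 CLP values and the 3 GMP values did not overlap, and a gene group is a result only where its counts depart from these background shares.

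The markers of both labels separated the populations. Il7r, which encodes the α chain of the interleukin 7 receptor, had 46.1, 42.7 and 48.4 CPM in CLP libraries, against 0.700, 0.563 and 0.742 CPM in GMP libraries. Mpo, the gene of myeloperoxidase, had 1183, 1171 and 1221 CPM in CLP libraries, against 55402, 55743 and 54296 CPM in GMP libraries. Elane, which encodes neutrophil elastase, had 173, 177 and 176 CPM in CLP libraries, against 20829, 21732 and 20566 CPM in GMP libraries. No library of one population came near the other for these 3 genes. Il7r was 70.0-fold higher in CLP (log2 fold change 6.13 ± 0.129, SE), Mpo 46.3-fold lower (-5.53 ± 0.112) and Elane 120-fold lower (-6.91 ± 0.0814), with adjusted p of 1.23e-74, 9.64e-24 and 7.16e-29 by edgeR's quasi-likelihood test. Among the 11 populations Il7r was 3rd highest in CLP, after CD3e T cells and B220+ cells, and Mpo and Elane were highest in GMP. The CLP libraries still held Mpo above the level of ST-HSC (71.9 ± 1.66 CPM) and MEP libraries, and they carried transcripts of basophils, red cells and stroma that are described below. In bulk RNA, fewer cells of a type and less RNA per cell cannot be told apart.

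**Figure D1:**
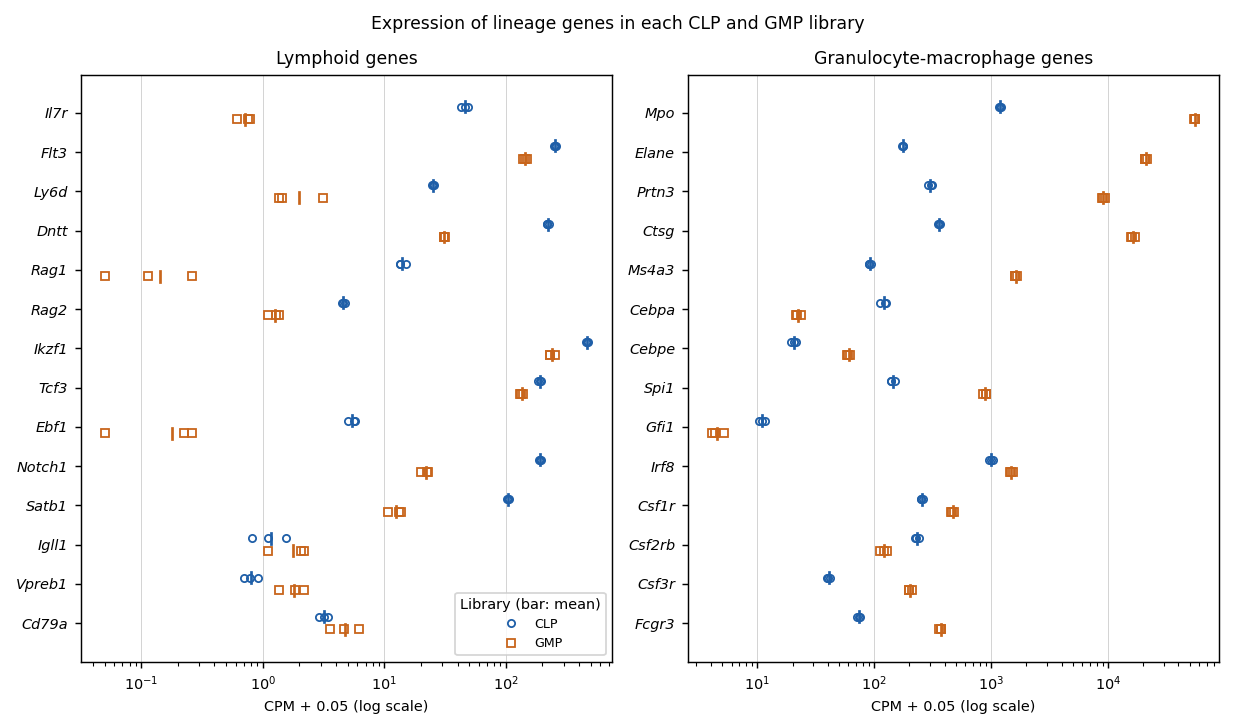
Levels of 14 lymphoid and 14 granulocyte-macrophage genes in each library, as CPM plus 0.05 on a log axis (circles, CLP; squares, GMP; bars, means of 3 libraries). The primary granule genes lie far to the right in GMP, Il7r and Rag1 far to the right in CLP, and Cebpa and Gfi1 lie to the right in CLP although they are granulocyte-macrophage factors.

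The granule genes Mpo, Elane, Prtn3 and Ctsg mark the granules here, and 3 lymphoid genes that rose mark the receptor and recombination genes. Each is shown with the 150 bases before its annotated start, 5′ to 3′ (RefSeq, GRCm38.p6, while the counts were made on mm39). Capitals in the granule genes mark AGGAAG, the core bound by PU.1 and other ETS factors, and AACNGT, a MYB core, each on either strand. Capitals in the lymphoid genes mark AGGAAG and CAGNTG, a core bound by E proteins.
Mpo (chr11:87793634-87793783, plus strand): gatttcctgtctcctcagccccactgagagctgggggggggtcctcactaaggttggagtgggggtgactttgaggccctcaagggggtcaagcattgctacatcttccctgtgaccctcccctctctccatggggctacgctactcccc
Elane (chr10:79886162-79886311, plus strand): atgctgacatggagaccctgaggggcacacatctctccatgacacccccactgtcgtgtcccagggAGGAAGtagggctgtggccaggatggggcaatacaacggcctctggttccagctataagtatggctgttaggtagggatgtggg
Prtn3 (chr10:79879517-79879666, plus strand): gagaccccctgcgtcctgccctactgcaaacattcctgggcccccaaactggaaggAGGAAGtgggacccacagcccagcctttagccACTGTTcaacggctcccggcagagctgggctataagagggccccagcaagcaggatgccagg
Ctsg (chr14:56102575-56102724, minus strand): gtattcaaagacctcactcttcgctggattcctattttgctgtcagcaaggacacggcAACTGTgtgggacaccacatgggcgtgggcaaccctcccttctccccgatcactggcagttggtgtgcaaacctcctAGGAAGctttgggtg
Il7r (chr15:9529877-9530026, minus strand): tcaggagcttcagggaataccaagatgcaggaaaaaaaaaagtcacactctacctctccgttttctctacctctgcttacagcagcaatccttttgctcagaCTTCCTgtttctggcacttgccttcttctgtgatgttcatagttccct
Rag1 (chr2:101649533-101649682, minus strand): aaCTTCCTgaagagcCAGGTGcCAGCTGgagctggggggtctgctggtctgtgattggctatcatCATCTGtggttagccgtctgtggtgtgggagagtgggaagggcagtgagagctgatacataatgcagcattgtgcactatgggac
Dntt (chr19:41029125-41029274, plus strand): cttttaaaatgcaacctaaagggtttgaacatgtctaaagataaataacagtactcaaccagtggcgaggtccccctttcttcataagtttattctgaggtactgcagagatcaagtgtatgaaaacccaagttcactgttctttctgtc
AGGAAG occurred in 3 of the 4 granule windows and in 2 of the 3 lymphoid ones, and in 19.7% of 32851 windows of the same length. AACNGT occurred in 2 of the 4 granule windows, in 1 of the 3 lymphoid ones (Dntt, 2 times, not in capitals there) and in 13.2% of all windows. CAGNTG occurred in 1 of the 3 lymphoid windows, that of Rag1, where it was found 3 times, in 1 of the 4 granule windows (Ctsg, not in capitals there) and in 30.1% of all windows. The C/EBP letters TTGCNNAA were in none of the 7 windows and in 5.46% of all. A match is a description of the letters, and binding was not measured.

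The lymphoid programme was higher in CLP in most of its parts. Of 16 lymphoid progenitor genes 12 were higher in CLP, 3 lower and 1 did not pass, with a median log2 fold change of 1.99. Of 20 lymphoid transcription factor genes 18 were higher and 1 lower, with a median of 2.48. Both medians lay above the 0.41 of all genes, and they were 1.04 and 1.38 once the trend of fold change with GC content and transcript length was taken out (all genes 0.185). Ly6d, which marks progenitors committed to the B lineage, averaged 25.2 ± 0.491 CPM in CLP and 1.93 ± 0.991 in GMP (SD, n = 3 each), 14.04-fold higher. Satb1, a chromatin organiser of lymphoid cells, averaged 104 ± 2.50 CPM in CLP and 12.4 ± 1.61 in GMP.

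The factors that direct B and T cell fate were present at low levels in CLP and nearly missing in GMP. Ebf1, which commits cells to the B lineage, had 4.995, 5.605 and 5.64 CPM in CLP libraries, against 0.175, 0 and 0.212 CPM in GMP libraries. Foxo1, which acts with it on Il7r and the recombinase genes, averaged 14.1 ± 1.07 CPM in CLP and 1.17 ± 0.287 in GMP. Tcf7, a T lineage factor downstream of Notch, averaged 16.3 ± 0.762 CPM in CLP and 0.421 ± 0.201 in GMP, 37.1-fold higher. Ikzf3 (Aiolos) averaged 17.2 ± 0.218 CPM in CLP and 0.337 ± 0.220 in GMP, 48.1-fold higher. The values of the populations did not overlap for any of these 4 genes, as for 77.7% of all genes. Foxo1, Tcf7 and Ikzf3 were named on that condition. Broad lymphoid regulators differed by less than 2-fold: Flt3, a cytokine receptor of early progenitors, was 1.75-fold higher in CLP (253 ± 4.12 against 144 ± 4.93 CPM), and Ikzf1 (Ikaros) was 1.94-fold higher but had a log2 fold change of -0.35 with the GC and length trend taken out. Tcf3, which encodes the E proteins E12 and E47, was 1.41-fold higher, and its log2 fold change was -0.01 with that trend taken out.

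The genes of recombination and end joining went both ways. Of 12 genes 7 were higher in CLP and 5 lower, with a median of 1.41 (0.526 with the GC and length trend taken out), and the end-joining genes among them were found on both sides. Rag1, a subunit of the recombinase that cuts antigen receptor genes, had 13.4, 14.9 and 13.5 CPM in CLP libraries, against 0, 0.0625 and 0.212 CPM in GMP libraries, where 3 reads were counted in all. The ratio was 170 with a 95% counting interval of 58.1 to 828. Dntt, the terminal transferase that adds bases at the joints, had 218, 220 and 228 CPM in CLP libraries, against 30.6, 30.6 and 31.4 CPM in GMP libraries. Rag2, the partner of Rag1, averaged 4.55 ± 0.110 CPM in CLP and 1.20 ± 0.129 in GMP. Prkdc, the kinase that brings the cut ends together, was 11.96-fold higher (84.4 ± 0.760 against 6.99 ± 0.789 CPM), which fell to a log2 fold change of 0.93 with the length trend taken out. The DNA-bending cofactors were among the lower genes, and Hmgb1 averaged 678 ± 17.7 CPM in CLP and 2260 ± 20.2 in GMP. Hmgb2 averaged 808 ± 20.9 CPM in CLP and 1731 ± 49.96 in GMP, and its log2 fold change was -0.02 under library size alone.

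Genes of the pre-B cell receptor and the B lineage were divided. Of 18 such genes 9 were higher in CLP, 5 lower and 4 did not pass, with a median of 0.185, below that of all genes. With the GC and length trend taken out 9 were higher and 4 lower, and the median was 0.331, above the 0.185 of all genes in that fit. The surrogate light chain genes were low in both populations: Igll1 averaged 1.11 ± 0.373 CPM in CLP and 1.73 ± 0.591 in GMP, and Vpreb1 averaged 0.751 ± 0.103 CPM in CLP and 1.75 ± 0.409 in GMP. The direction turned for Igll1 with library size alone and for Vpreb1 with the GC and length trend taken out, and neither then passed. Cd79a, a signalling chain of the B cell receptor, averaged 3.12 ± 0.269 CPM in CLP and 4.74 ± 1.33 in GMP and did not pass (adjusted p = 0.144, edgeR's quasi-likelihood test). It passed as lower with CLP and GMP libraries alone (log2 fold change -0.79, adjusted p = 3.44e-05) and, with a replicate block, as lower (-0.82) or, with the GC and length trend also taken out, as higher (0.51). Vpreb2 had no count in GMP libraries and was at least 9.63-fold higher in CLP against a floor of 3 counts over the 3 GMP libraries. Some signalling genes of the list differed far more than its median. Blnk, the adaptor of the receptor, was 13.6-fold higher in CLP (22.9 ± 0.882 against 1.67 ± 0.321 CPM), the kinase gene Blk 25.4-fold higher (10.6 ± 0.797 against 0.418 ± 0.0972) and the inhibitory receptor gene Cd22 21.8-fold higher (15.9 ± 1.48 against 0.708 ± 0.145).

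T lineage and innate lymphoid genes were mostly higher in CLP, at low levels. Of 16 T lineage genes 11 were higher and 2 lower, with a median of 1.40, and of 13 natural killer and innate lymphoid genes 11 were higher and 2 lower, with a median of 2.50. Thy1 averaged 19.4 ± 0.557 CPM in CLP and 0.310 ± 0.131 in GMP, 58.8-fold higher. Il2rb, the receptor chain shared by interleukins 2 and 15, averaged 15.9 ± 1.17 CPM in CLP and 1.41 ± 0.285 in GMP. Nkg7, a cytotoxic granule gene, went the other way with 47.1 ± 2.61 CPM in CLP and 970 ± 35.1 in GMP, 20.5-fold lower.

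Receptor signalling was uneven. Of 15 genes of interleukin 7 and common γ chain signalling 6 were higher in CLP and 8 lower, with a median of -0.50, which was 0.58 with library size alone. Beside the rise of Il7r, the gene of another receptor of this family, Il21r, averaged 10.3 ± 0.822 CPM in CLP and 26.1 ± 0.741 in GMP, 2.51-fold lower. Bcl2, the survival gene that interleukin 7 sustains, averaged 159 ± 5.01 CPM in CLP and 38.1 ± 4.17 in GMP, but did not differ past the threshold with the GC and length trend taken out (log2 fold change 0.08, adjusted p = 0.118, edgeR's quasi-likelihood test).

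Genes of the Notch pathway were mostly higher in CLP. Of 16 Notch pathway genes 13 were higher in CLP and 1 lower, with a median of 2.41, and 9 were higher and 4 lower with the GC and length trend taken out (median 0.954). Notch1, the receptor that turns lymphoid progenitors to the T lineage, had 191, 189 and 194 CPM in CLP libraries, against 22.3, 23.0 and 20.02 CPM in GMP libraries. Notch2 averaged 176 ± 6.94 CPM in CLP and 13.998 ± 0.281 in GMP, and Maml1, a coactivator of the receptors, 42.3 ± 1.14 in CLP and 3.004 ± 0.111 in GMP. The log2 fold change of Notch1 was 3.12 and fell to 0.72 with the trend taken out, still past the threshold. The 4 lower genes in that fit were Notch4 (-1.63), Jag2 (-0.72), Maml3 (-0.29) and Rbpj (-0.27). Of 7 genes of E proteins and their Id inhibitors 5 were higher and 1 lower, and those that rose included the E protein gene Tcf12 (107 ± 1.99 against 26.6 ± 1.55 CPM) and the inhibitor gene Id2 (22.2 ± 1.22 against 5.59 ± 0.632 CPM). With the trend taken out the median of this list fell to 0.302, against 1.96, and the log2 fold change of Tcf12 was 0.30, against 2.01.

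The granule genes made the clearest difference in the opposite direction. All 12 primary granule genes were lower in CLP, 11 of them by 2-fold or more, with a median of -3.33, and all 12 were also lower with the GC and length trend taken out (median -2.73). Their levels summed to 4058 to 4193 CPM in CLP libraries and to 115000 to 120100 CPM in GMP libraries. The protease genes Prtn3 (proteinase 3) and Ctsg (cathepsin G) had means of 302 ± 10.7 and 358 ± 5.57 CPM in CLP, against 9125 ± 305 and 16244 ± 592 CPM in GMP. As a share of all counts, Mpo, Elane, Prtn3 and Ctsg together made up 0.252% ± 0.00265 in CLP and 5.995% ± 0.0260 in GMP (SD, n = 3 each). Ms4a3, a membrane gene of this stage, averaged 91.0 ± 2.15 CPM in CLP and 1630 ± 40.2 in GMP, 17.9-fold lower. The CLP and GMP libraries did not overlap for any of the genes named here, as for 77.7% of all genes.

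Genes of later neutrophil granules were lower too, but started from low levels in GMP. Of 16 secondary and tertiary granule genes 14 were lower in CLP and 1 higher, with a median of -1.48. With the GC and length trend taken out 9 were lower and 2 higher (median -0.722), and with library size alone the median was -0.40. Ltf (lactoferrin) averaged 6.56 ± 0.342 CPM in CLP and 36.2 ± 3.42 in GMP, and S100a8, a calcium-binding protein of neutrophils, 12.4 ± 0.884 in CLP and 89.3 ± 10.8 in GMP. Of the 6 genes of the NADPH oxidase, the enzyme that makes superoxide, 5 were lower, with Cyba at 71.8 ± 3.81 CPM in CLP and 338 ± 14.4 in GMP. Cybb, the catalytic subunit, was 2.09-fold higher in CLP (92.3 ± 4.62 against 44.1 ± 2.22 CPM) and did not differ past the threshold with the GC and length trend taken out (log2 fold change -0.03, adjusted p = 0.773, edgeR's quasi-likelihood test); it was chosen after its values were seen.

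The transcription factors of the granulocyte-macrophage branch did not follow its granules. Of 12 such genes 8 were higher in CLP and 4 lower, with a median of 1.11, but with the GC and length trend taken out 6 were higher and 6 lower, with a median of 0.216 that was near the 0.185 of all genes. Spi1, the gene of PU.1, had 140, 139 and 150 CPM in CLP libraries, against 895, 900 and 858 CPM in GMP libraries, 6.16-fold lower. Cebpe, which directs late granule genes, averaged 20.4 ± 0.979 CPM in CLP and 60.2 ± 1.81 in GMP. Cebpa, the gene of C/EBPα, had 124, 113 and 126 CPM in CLP libraries, against 21.5, 23.6 and 21.2 CPM in GMP libraries. All CLP values lay above all GMP values, and CLP held the highest mean of the 11 populations, ahead of GMP. Cebpb averaged 29.4 ± 0.170 CPM in CLP and 1.10 ± 0.253 in GMP, and Klf4, a factor of monocytes, 135 ± 8.57 in CLP and 5.47 ± 0.375 in GMP. Cebpa, Cebpb, Klf4 and Gfi1 (10.9 ± 0.634 against 4.46 ± 0.557 CPM) were higher in CLP under each scaling and with the GC and length trend taken out. Irf8, a factor of monocytes and dendritic cells, averaged 995 ± 38.2 CPM in CLP and 1487 ± 39.9 in GMP, and its log2 fold change of -0.58 was 0.50 with library size alone.

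**Figure D2:**
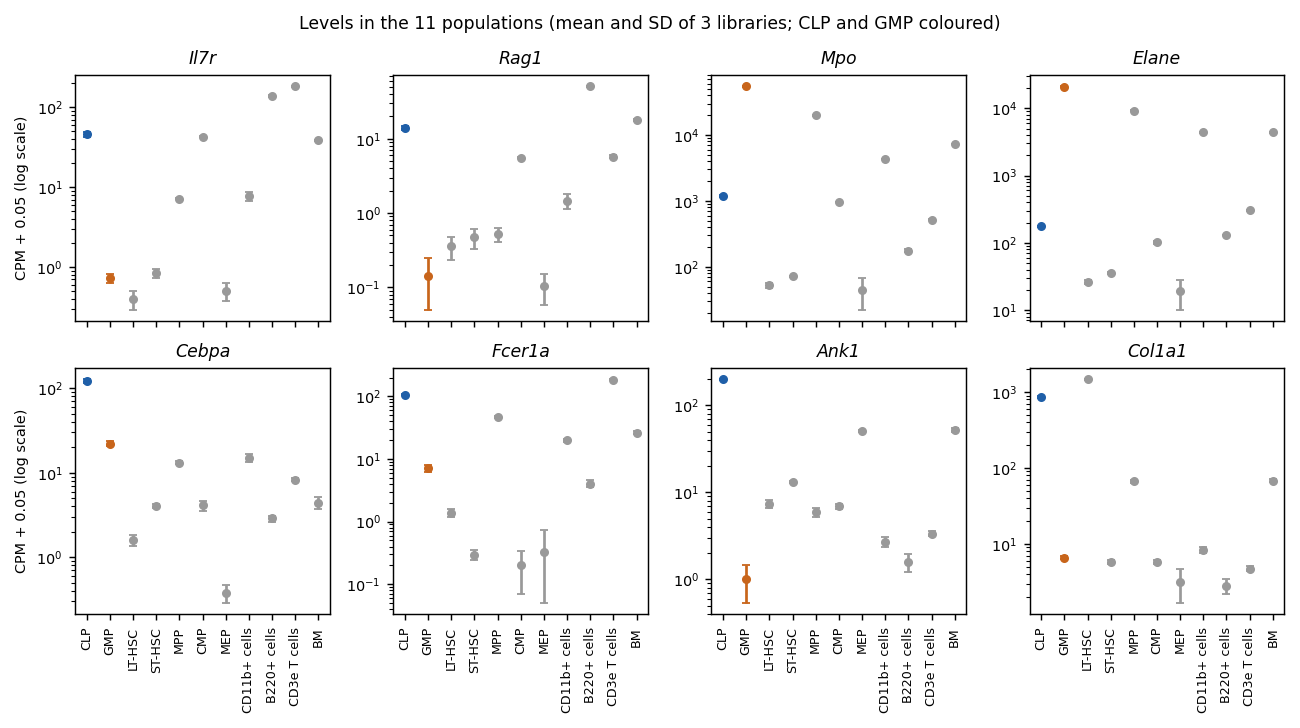
Mean CPM plus 0.05 on a log axis, with the SD of 3 libraries, of 8 genes in the 11 populations (CLP and GMP coloured, others grey). Mpo and Elane are highest in GMP, Cebpa and Ank1 are highest in CLP, and Il7r is high in CLP, CMP, whole bone marrow (BM), B220+ cells and CD3e T cells.

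Cytokine receptors were divided between the populations. Of 16 myeloid cytokine and innate receptor genes 7 were higher in CLP and 9 lower, with a median of -1.01, which was 0.07 with library size alone. Csf3r, the receptor for granulocyte colony-stimulating factor, averaged 40.6 ± 1.24 CPM in CLP and 202 ± 8.07 in GMP. Fcgr3, an Fcγ receptor of the kind used to sort GMP, averaged 73.3 ± 2.55 CPM in CLP and 369 ± 7.73 in GMP. Csf1r, the receptor for macrophage colony-stimulating factor, averaged 255 ± 7.43 CPM in CLP and 467 ± 17.7 in GMP, with a log2 fold change of -0.87 that was 0.20 with library size alone. Csf2rb averaged 230 ± 8.36 CPM in CLP and 120 ± 7.24 in GMP, but its log2 fold change was -0.12 with the GC and length trend taken out. Csf2rb2 was 7.64-fold higher in CLP (101 ± 4.36 against 13.4 ± 0.684 CPM), and the close similarity of the pair leaves the division of reads between them uncertain.

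Monocyte genes were lower on balance and stem cell genes were mixed. Of 18 monocyte and macrophage genes 11 were lower in CLP and 4 higher, with a median of -0.78 that was 0.295 with library size alone. Ly6c2 fell the most of the abundant ones, with 375 ± 3.68 CPM in CLP and 6304 ± 165 in GMP, although reads of the related Ly6 genes may be divided between them. Cx3cr1, a chemokine receptor of monocytes and dendritic cells, averaged 79.4 ± 3.83 CPM in CLP and 24.5 ± 1.32 in GMP. Of 22 stem cell genes 6 were higher and 13 lower, with a median of -0.49 that was 0.59 with library size alone. Kit, the stem cell factor receptor, averaged 57.9 ± 4.74 CPM in CLP and 180 ± 5.09 in GMP. Cd34 averaged 124 ± 6.87 CPM in CLP and 1790 ± 42.6 in GMP, and Ly6a (Sca-1) 2.20 ± 0.226 in CLP and 32.9 ± 1.54 in GMP.

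Most genes of several other blood lineages were higher in CLP than in GMP. Of 22 erythroid genes 21 were higher and none lower, with a median of 3.21 and a summed level of 3985 to 4174 CPM in CLP libraries and 572.6 to 669.9 in GMP libraries. Ank1, which anchors the red cell skeleton, had 199, 196 and 199 CPM in CLP libraries, against 1.31, 1.13 and 0.424 CPM in GMP libraries. Zfpm1, a cofactor of GATA1, averaged 127 ± 3.45 CPM in CLP and 1.36 ± 0.174 in GMP. The CLP mean of Ank1 was the highest of the 11 populations, above whole bone marrow (52.1 ± 2.95 CPM) and MEP (50.6 ± 1.76 CPM). The list as a whole did not rank so. Its summed level averaged 4082 ± 94.6 CPM in CLP, 43160 ± 1160 in MEP and 82140 ± 3360 in whole bone marrow. It was also higher than in CLP in MPP (4168 ± 39.9), B220+ cells (5314 ± 107) and CD3e T cells (6438 ± 30.2). CD11b+ cells (3994 ± 48.6), ST-HSC (2988 ± 19), CMP (2321 ± 38.5) and LT-HSC (2230 ± 17) lay below CLP, and GMP was the lowest of the 11 populations (622.1 ± 48.6). The globin gene Hba-a2, which is nearly identical to Hba-a1, averaged 9.70 ± 0.352 CPM in CLP and 8.91 ± 0.681 in GMP and did not pass, although it passed as higher with library size alone (log2 fold change 1.22) and with the GC and length trend taken out (1.71).

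Of 16 mast cell, basophil and eosinophil genes 12 were higher in CLP and 2 lower, with a median of 2.75 and a summed level of 10080 to 10540 CPM in CLP libraries and 4168 to 4416 in GMP libraries. The mean sum in CLP (10270 ± 242 CPM) was the highest of the 11 populations, followed by MPP (9486 ± 145) and CD3e T cells (7057 ± 19.9). Prss34, a basophil protease, was 9.59-fold higher (3304 ± 104 against 344 ± 15.3 CPM), and it was the 4th most abundant gene of CLP. Fcer1a, the α chain of the IgE receptor, averaged 107 ± 1.84 CPM in CLP and 7.06 ± 0.958 in GMP, and Il1rl1, the receptor for interleukin 33, 66.9 ± 0.841 in CLP and 3.71 ± 0.370 in GMP. Prg2, the major basic protein of eosinophils, did not pass, with 2497 ± 35.8 CPM in CLP and 2575 ± 76.4 in GMP (adjusted p = 0.388, edgeR's quasi-likelihood test). Its log2 fold change was 1.03 with library size alone and 1.57 with the GC and length trend taken out, past the threshold in both, and it passed as lower with CLP and GMP libraries alone (-0.26). Of 14 megakaryocyte genes tested 12 were higher in CLP and 2 lower, and 1 of the 15 on the list was not tested. Their summed level was nonetheless lower in CLP, at 566 to 605.1 CPM in CLP libraries and 642 to 696 in GMP libraries. The platelet chemokine gene Ppbp had 31.5, 30.5 and 30.4 CPM in CLP libraries, against 0.263, 0.188 and 0.318 CPM in GMP libraries. Nfe2, a factor of platelet formation, went the other way, with 96.3 ± 2.44 CPM in CLP and 545 ± 30.3 in GMP.

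Most dendritic cell genes were also higher, but their summed levels went both ways. Of 12 plasmacytoid dendritic cell genes 9 were higher in CLP and 1 lower, with a median of 2.92, and of 16 genes of MHC class II and conventional dendritic cells 11 were higher and 4 lower, with a median of 2.09. The plasmacytoid list summed to 728.5 to 763 CPM in CLP libraries and 227.8 to 236.4 in GMP libraries. The MHC class II and conventional list summed to 439.3 to 460.6 CPM in CLP libraries and 757.1 to 794.6 in GMP libraries. Siglech, a surface lectin of plasmacytoid cells, averaged 44.1 ± 1.95 CPM in CLP and 1.59 ± 0.298 in GMP. Itgax (CD11c) averaged 79.6 ± 3.04 CPM in CLP and 1.30 ± 0.343 in GMP, 58.6-fold higher, and Clec9a, a receptor for dead cells on conventional dendritic cells, 34.3 ± 1.17 in CLP and 1.08 ± 0.124 in GMP. H2-DMa, which helps to load peptides on MHC class II, was 5.88-fold lower, with 97.2 ± 3.61 CPM in CLP and 573 ± 18.8 in GMP. Of 10 plasma cell genes 5 were higher, 1 lower and 4 did not pass, with a median of 1.10. Their summed level was 816.8 to 848.8 CPM in CLP libraries and 1122 to 1145 in GMP libraries. The gene that fell was Xbp1, at 127 ± 5.44 CPM in CLP and 570 ± 15.9 in GMP.

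The largest median of the 44 lists was that of the stromal and endothelial genes. Of 16 genes 14 were higher in CLP and 1 lower, with a median of 5.97 (5.90 with the gene without a GMP count, Pdgfra, at its bound) and a summed level of 2421 to 2557 CPM in CLP libraries and 209.8 to 218.7 in GMP libraries. The mean sum was higher in LT-HSC (4531 ± 13.7 CPM) than in CLP (2492 ± 68.2), and in the other populations it was at most 604.8 ± 2.73 (CD3e T cells). Col1a1 and Col1a2, the chains of type I collagen, averaged 858 ± 17.8 and 896 ± 35.0 CPM in CLP, against 6.501 ± 0.286 and 3.87 ± 1.41 CPM in GMP. Sparc, a matrix protein of bone, averaged 219 ± 10.5 CPM in CLP and 2.20 ± 0.449 in GMP. Pdgfra had 317 counts in CLP libraries and none in GMP libraries, and was at least 59.9-fold higher against a floor of 3 counts over the 3 GMP libraries. Markers of blood cells and of stroma thus moved with the CLP libraries beside the lymphoid genes above, and their part in the other differences was not tested.

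**Figure D3:**
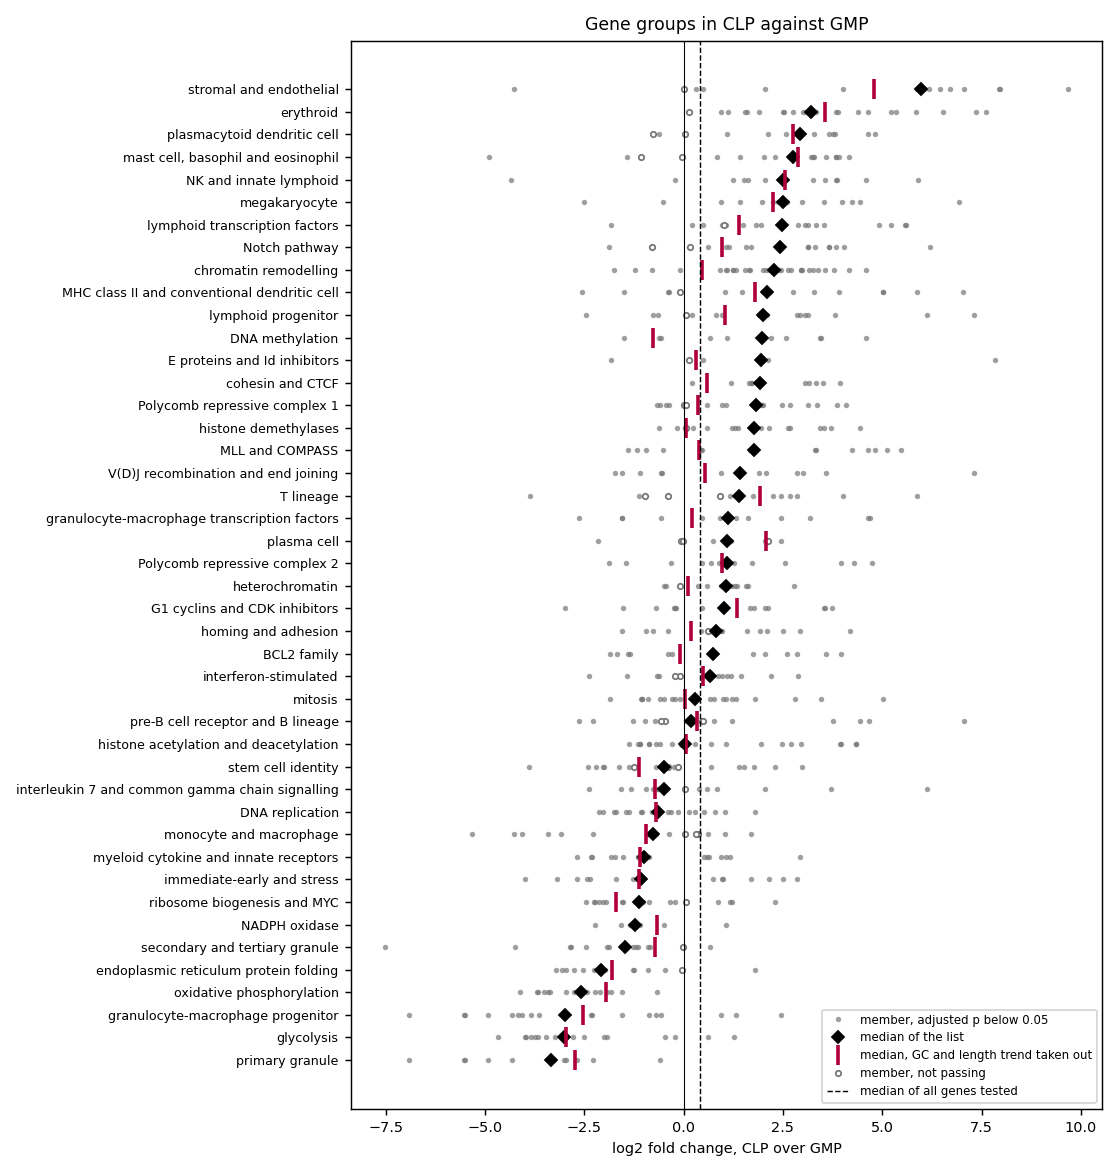
Log2 fold change (CLP over GMP) of every measured member of the 44 gene lists, ordered by the median (diamonds, medians; red ticks, medians with the GC and length trend taken out; dashed line, median of all genes tested, 0.41). Stromal, erythroid and other lineage lists stand at the top, and primary granule, glycolysis and oxidative phosphorylation lists at the bottom, and the median of the DNA methylation list turns from positive to negative with the trend taken out.

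The cell cycle genes did not move as 1 group. Of 20 DNA replication genes 6 were higher in CLP and 14 lower, with a median of -0.65 that was 0.43 with library size alone. Mcm6 and Mcm5, subunits of the helicase that opens replication origins, averaged 514 ± 2.96 and 409 ± 9.38 CPM in CLP, against 2239 ± 58.1 and 1667 ± 55.3 CPM in GMP. Of 20 mitosis genes 10 were higher and 10 lower, with a median of 0.278. Mki67, which coats mitotic chromosomes, had 1785, 1822 and 1831 CPM in CLP libraries, against 55.6, 58.9 and 53.0 CPM in GMP libraries. This was 32.2-fold higher, and its log2 fold change of 5.01 was 2.57 with the GC and length trend taken out. Cenpf and Cenpe, large kinetochore proteins, averaged 195 ± 1.79 and 191 ± 1.38 CPM in CLP, against 17.7 ± 1.12 and 27.2 ± 1.46 CPM in GMP, and their log2 fold changes of 3.45 and 2.81 were 0.92 and 0.73 with the trend taken out. Top2a was 2.48-fold higher in CLP and did not differ past the threshold with the trend taken out (log2 fold change 0.00, adjusted p = 1, edgeR's quasi-likelihood test).

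Regulators of the G1 phase went both ways. Cdk4, the kinase that drives entry into S phase, averaged 266 ± 10.5 CPM in CLP and 2111 ± 58.9 in GMP, 7.94-fold lower. Of 5 genes of inhibitors of such kinases 3 were higher and 2 lower. Cdkn1b (p27) averaged 96.2 ± 5.27 CPM in CLP and 8.25 ± 0.833 in GMP, and Cdkn2c (p18) 68.2 ± 1.77 in CLP and 5.12 ± 0.115 in GMP. Cdkn1a (p21), chosen after its values were seen, was lower, with a log2 fold change of -1.53. Rb1, the retinoblastoma gene, averaged 115 ± 3.72 CPM in CLP and 9.69 ± 0.630 in GMP. The directions of Cdk4, Cdkn1b, Cdkn2c, Cdkn1a and Rb1 held with library size alone and with the GC and length trend taken out. Cdkn2d, the other inhibitor gene that was lower (log2 fold change -0.70), turned in both (0.37 and 0.25). Over the whole list of 15 G1 cyclins and inhibitors 9 were higher and 6 lower, with a median of 1.01.

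Genes of energy metabolism and growth were lower in CLP, well below the median of all genes. All 21 genes of oxidative phosphorylation were lower, with a median of -2.60, and 14 of 16 glycolysis genes were lower, with a median of -3.01. Ldha (lactate dehydrogenase) had 315, 305 and 317 CPM in CLP libraries, against 7813, 8248 and 7771 CPM in GMP libraries, 25.4-fold lower. Atp5b, a subunit of ATP synthase, had 809, 795 and 841 CPM in CLP libraries, against 9251, 9729 and 9218 CPM in GMP libraries, 11.5-fold lower. CLP had the lowest mean of Ldha among the 11 populations and GMP the highest. All 21 oxidative phosphorylation genes and 14 glycolysis genes were also lower with the GC and length trend taken out, with medians of -1.96 and -2.97.

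The genes of the respiratory chain that lie in mitochondrial DNA did not follow those in the nucleus. Of these 13 genes, looked at after their values were seen, 6 were higher in CLP, 4 lower and 3 did not pass, with a median of 0.682 (1.76 with library size alone, 1 lower). mt-Nd5 averaged 2171 ± 108 CPM in CLP and 823 ± 20.9 in GMP, and mt-Co1 11135 ± 445 in CLP and 11575 ± 276 in GMP. As a share of raw counts, without TMM factors, mitochondrial genes took 2.86% to 2.93% of a CLP library and 1.18% to 1.21% of a GMP library. On the TMM scale the 13 genes summed to 22560 to 23850 CPM in CLP libraries and 19650 to 20570 in GMP libraries.

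Growth and secretion genes fell as well. Of 18 genes of ribosome biogenesis and MYC 13 were lower in CLP and 4 higher, with a median of -1.12. Myc averaged 90.4 ± 3.25 CPM in CLP and 493 ± 19.7 in GMP, while its partner Max averaged 99.7 ± 4.81 CPM in CLP and 20.3 ± 0.946 in GMP. Of 82 cytosolic ribosomal protein genes, also looked at after their values were seen, 75 were lower in CLP and 4 higher, with a median of -2.03 (-0.955 with library size alone, 67 lower). Of 16 genes of protein folding in the endoplasmic reticulum 14 were lower and 1 higher, with a median of -2.09. P4hb, a disulfide isomerase, averaged 678 ± 13.9 CPM in CLP and 4610 ± 97.9 in GMP, and Calr (calreticulin), a chaperone also needed for myeloperoxidase, 1183 ± 15.1 in CLP and 9271 ± 257 in GMP.

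Survival, homing and stress genes were mixed. Of 12 BCL2 family genes 6 were higher in CLP and 6 lower, with a median of 0.73 that was -0.09 with the GC and length trend taken out. The protective Mcl1 averaged 257 ± 9.25 CPM in CLP and 76.1 ± 2.37 in GMP, and the death-promoting Bak1 45.2 ± 0.790 in CLP and 3.68 ± 0.564 in GMP. Of 16 homing and adhesion genes 11 were higher and 4 lower, with a median of 0.81, but 7 were higher and 7 lower with the GC and length trend taken out (median 0.196). Cxcr4, the receptor that holds progenitors near CXCL12 in the marrow, had 162, 155 and 156 CPM in CLP libraries, against 8.06, 9.94 and 7.42 CPM in GMP libraries. Of 16 immediate-early genes, which respond to handling and to signals, 7 were higher and 9 lower, with a median of -1.08. Fos averaged 910 ± 25.8 CPM in CLP and 4665 ± 107 in GMP, and Atf3 14.9 ± 1.27 in CLP and 238 ± 5.85 in GMP. Of 16 interferon-stimulated genes 10 were higher and 4 lower, with a median of 0.667, near that of all genes.

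The chromatin regulators were higher in CLP in most families. Of 33 genes of chromatin remodelling 29 were higher and 4 lower (median 2.28), of 15 MLL and COMPASS genes 11 and 4 (median 1.78), and of 17 histone demethylase genes 14 and 2 (median 1.78). All 11 genes of cohesin and CTCF were higher (median 1.91). Of 20 genes of Polycomb repressive complex 1 14 were higher and 4 lower (median 1.82), and of 12 of complex 2 9 were higher and 3 lower (median 1.08). Of 11 DNA methylation genes 8 were higher and 3 lower (median 1.97), and of 14 heterochromatin genes 11 and 2 (median 1.07). The 23 genes of histone acetylation and deacetylation were divided, 11 higher and 9 lower (median 0.0455).

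Enzymes and core subunits of these complexes held some of the largest differences. Kmt2b, a histone H3 lysine methyltransferase, had 162, 152 and 167 CPM in CLP libraries, against 3.68, 3.81 and 3.28 CPM in GMP libraries. Suz12, a core subunit of Polycomb repressive complex 2, had 211, 204 and 213 CPM in CLP libraries, against 9.54, 11.3 and 11.2 CPM in GMP libraries. Rad21, the cohesin subunit cleaved at anaphase, had 409, 409 and 418 CPM in CLP libraries, against 28.4, 26.8 and 25.6 CPM in GMP libraries. The populations were far apart for each of the 3. Kat6a, an acetyltransferase of stem cells, averaged 165 ± 2.82 CPM in CLP and 7.88 ± 1.52 in GMP, and Tet2, which oxidises methylated cytosine, 114 ± 4.73 in CLP and 10.3 ± 0.464 in GMP. Chd4, the motor of the NuRD complex, averaged 544 ± 10.4 CPM in CLP and 70.1 ± 0.0958 in GMP.

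Other subunits of the same complexes went the other way. Rbbp7 and Rbbp4, histone-binding proteins of Polycomb repressive complex 2 and of NuRD, averaged 218 ± 7.71 and 307 ± 7.07 CPM in CLP, against 808 ± 22.5 and 845 ± 28.8 CPM in GMP. Wdr5, the scaffold of the MLL complexes, averaged 110 ± 4.45 CPM in CLP and 249 ± 6.30 in GMP. The log2 fold changes of Kmt2b, Suz12 and Rad21 were 5.46, 4.29 and 3.93, and 3.05, 3.39 and 3.28 with the GC and length trend taken out. Those of Kat6a, Tet2 and Chd4 were 4.34, 3.45 and 2.96, and 2.05, 1.13 and 1.30 with the trend taken out.

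Transcript length went with the fold change across all genes. Spearman's rho between length and log2 fold change was 0.301 over the 19756 genes with a length, and that with GC content was -0.0891, across genes that are not independent replicates. With the genes cut by transcript length into 5 equal bins, the median log2 fold change was -0.34 in the shortest (up to 1296 bases), -0.23, 0.16 and 0.63 in the next bins and 1.83 in the longest (from 4720 bases), where 77.0% of genes were higher in CLP and 10.9% lower. With the GC and length trend taken out, 8224 of the 19756 genes were higher in CLP and 6902 lower, the background for the counts that follow. The chromatin remodelling list had a median length of 6492 bases, against 2816 bases over all genes. With the trend taken out 19 of its 33 genes were higher and 11 lower (median 0.468), 12 of 15 MLL and COMPASS genes were higher and 3 lower (0.387), and 7 of 11 cohesin genes were higher and 2 lower (0.592). The DNA methylation list turned, with 4 higher and 6 lower (-0.771), and 7 of 12 genes of Polycomb repressive complex 2 were higher and 5 lower (0.974). Of the histone demethylase genes 8 were higher and 7 lower (0.0489), of the genes of Polycomb repressive complex 1 13 and 6 (0.355), and of the heterochromatin genes 7 and 6 (0.110). Among other genes named above, the log2 fold change with the trend taken out was 1.36 for Foxo1, 1.35 for Satb1, 1.33 for Notch2, 0.32 for Flt3, -0.95 for Cyba and -1.22 for S100a8, less than 0.5 of its size without that step. With library size alone the falls of Wdr5 (-0.10), Il21r (-0.25), Rbbp4 (-0.38), Cebpe (-0.48) and Kit (-0.56) shrank in the same way. Those of Vpreb1 (-0.20), Cdkn1a (-0.45), Hmgb1 (-0.66), Rbbp7 (-0.82), Mcm5 (-0.95) and Mcm6 (-1.05) did so too. Whether the trend with length comes from the cells or from RNA and library preparation was not tested, and taking it out also removes any difference of the cells that goes with length.

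**Figure D4:**
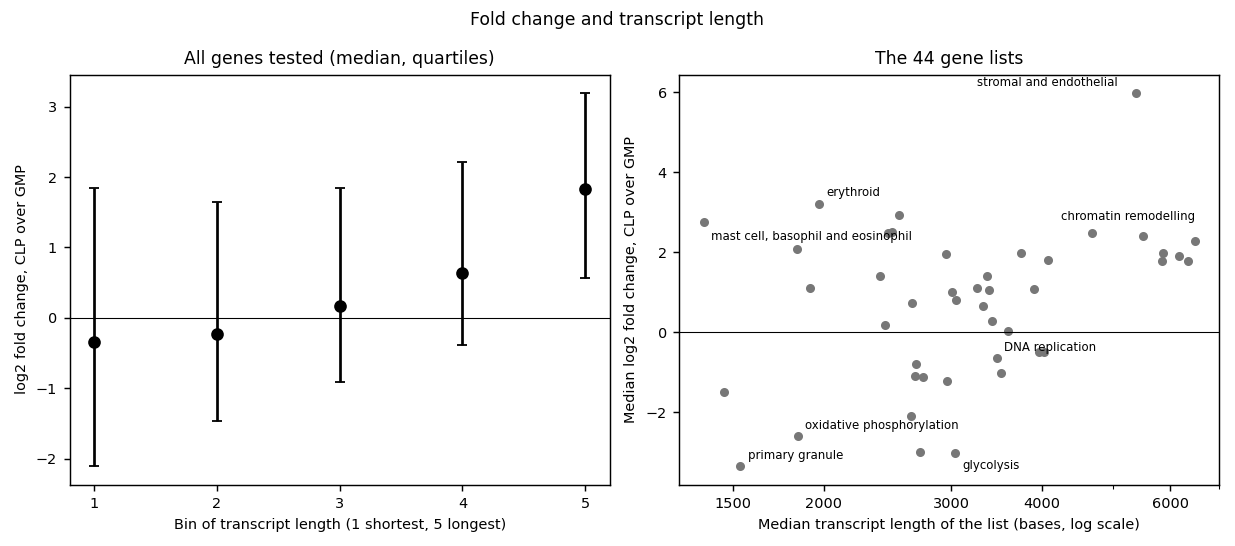
Left, median and quartiles of the log2 fold change (CLP over GMP) in 5 equal bins of transcript length, which run from -0.34 in the shortest to 1.83 in the longest. Right, median log2 fold change of each of the 44 lists against the median transcript length of its members on a log axis; the erythroid and mast cell lists are high though short, and the glycolysis list is low though longer than the median of all genes.

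The largest single differences were taken among genes with a mean of at least 10 CPM in the higher population, without predicted genes and clone names. Among the 10 largest rises of that kind were Pkhd1l1, at 109 ± 4.92 CPM in CLP and 0.185 ± 0.0784 in GMP, and Btnl10, at 83.1 ± 3.60 in CLP and 0.331 ± 0.275 in GMP. Igfbp5, an insulin-like growth factor binding protein of stromal cells, averaged 72.4 ± 2.83 CPM in CLP and 0.271 ± 0.0715 in GMP. Ntn4 (netrin 4, a basement membrane protein) had 899 counts in CLP libraries and none in GMP libraries, and was at least 170-fold higher against a floor of 3 counts over the 3 GMP libraries. Col11a1 averaged 51.5 ± 1.73 CPM in CLP and 0.05003 ± 0.0451 in GMP, with a ratio of 954 and a 95% counting interval of 264 to 7880. Slc30a10, Col6a1, Prr33, Pdzd4 and Grik5 completed the 10.

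Among the 10 largest falls under the same conditions were Elane, Gpx1 and 5 histone genes. Gpx1, a glutathione peroxidase, averaged 3.54 ± 0.520 CPM in CLP and 358 ± 29.4 in GMP, 103-fold lower. Hist1h4d, a gene of histone H4, had 3.06, 1.90 and 2.33 CPM in CLP libraries, against 309, 309 and 296 CPM in GMP libraries. Histone genes of this cluster are nearly identical in sequence and mostly lack a poly(A) tail, so the division of reads among them is uncertain and their level depends on how polyadenylated RNA was selected. Of 55 replication-dependent histone genes, looked at after their values were seen, 52 were lower in CLP and 1 higher, with a median of -2.68 (-1.61 with library size alone, 41 lower). Hist1h2ao, Hist1h2ap, Hist1h2ae, Hist1h2ab, Eno1b, Ly6i and Churc1 completed the 10, of which Eno1b and Ly6i also have close relatives.

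CLP was also set against CMP (common myeloid progenitors), a progenitor population with Il7r at a like level, to see how far the lymphoid genes set CLP apart; both comparisons use the same CLP libraries. In that comparison 43.3% of the genes were higher in CLP and 39.0% lower. Il7r had a log2 fold change of 0.09 (CLP over CMP), Notch1 of 0.41 and Rag1 of 1.32, while Dntt and Rag2 were lower in CLP (-3.47 and -2.44). Of the 16 lymphoid progenitor genes 7 were higher in CLP than in CMP and 9 lower (median -1.43), and Flt3 was lower (-1.56). The recombination list had 5 higher and 7 lower, the Notch list 7 and 7, and the T lineage list 5 and 7. Lymphoid transcription factors went the other way, with 13 higher and 5 lower (median 0.72), as did the natural killer list with 10 and 3. The summed level of the lymphoid progenitor list was 2086 ± 41.8 CPM in CLP, 1617 ± 46.1 in GMP and 5313 ± 38.2 in CMP. Elane, Mpo and Ctsg had log2 fold changes of 0.79, 0.30 and 1.14 (CLP over CMP), against -6.91, -5.53 and -5.50 (CLP over GMP).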

How the data were processed

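Polyadenylated RNA was extracted with TRIzol and made into libraries with the TruePrep DNA Library Prep Kit V2, per the labels' protocols. The authors deposited raw counts of reads per gene for 33 libraries, and cutadapt, HISAT2, HTSeq, DESeq2 and the genome build mm39 are named in the submitters' processing notes. The annotation release, the use of strand and the tools' versions are not given in the sources used here, so reads of overlapping and antisense genes cannot be told apart. All 33 libraries were fitted together in edgeR 4.0.16 (R 4.3.3, limma 3.58.1) with filterByExpr, TMM factors and a robust quasi-likelihood test, and CLP was contrasted with GMP with 22 residual degrees of freedom. Adjusted p below 0.05 (Benjamini-Hochberg over 20464 genes) counted as passing, and SE was the log2 fold change divided by the root of F. Levels are CPM on TMM-scaled library sizes. Total counts per library were 14922636 to 27757206 in the populations compared, and counting intervals cover counting error only. GC content and transcript length were available for 96.54% of the genes tested, and their trend was taken out in an alternative fit.

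The members and the 44 lists were chosen with earlier results of these data known. Named genes were the 10 largest rises and falls (mean of at least 10 CPM in the higher population, no overlap, no predicted genes, clone names, pseudogenes, ribosomal protein, mitochondrial or antigen receptor genes), the 2 most abundant and 3 most changed of each list, and a panel of lineage genes; Cybb, Cdkn1a, Hba-a2, Pdgfra, Vpreb2 and the families of histone, ribosomal protein and mitochondrial genes were chosen after their values were seen. Some genes that this rule names are not reported here. Lists are described by counts and medians, without a test. On simulated data for CLP against GMP, 88%, 98%, 100% and 100% of 50 genes changed by 1.5-, 2-, 4- and 8-fold were recovered in the planted direction, while calls were made for 0.0759% of the 17120 genes left as they were. Those genes had the same mean in all simulated libraries, whereas most genes of the real data differed. False calls under the real shift in scaling between CLP and GMP were therefore not tested. Alternatives were other scalings, no filter on low counts, DESeq2 1.42.0, a test against 2-fold, CLP and GMP libraries alone, a replicate block, the GC and length trend, each library left out, and, added after seeing the data, dispersion estimated before the fit.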

Additional observations from a re-analysis of the deposited data

How the results depend on the processing

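Relative log expression factors, no filter on low counts, DESeq2, CLP and GMP libraries alone and dispersion estimated before the fit left the 4 counts of higher and lower genes within 1.5 times. With 1 library left out, 9086 to 9489 genes were higher and 6145 to 6395 lower, and 7383 to 7662 were higher and 4250 to 4413 lower by 2-fold or more. Library size alone left 3352 genes lower (1787 by 2-fold or more) beside 13219 higher, and the test against 2-fold left 3881 lower. The median of all genes (0.41) was 1.47 with library size alone, 0.220 with CLP and GMP libraries alone and 0.185 with the GC and length trend taken out. With library size alone the log2 fold changes of Igll1 (0.34), Cd79a (0.50), Irf8 (0.50), Csf1r (0.20) and Prg2 (1.03) turned, as did the medians of the lists of interleukin 7 signalling (0.58), myeloid receptors (0.068), monocytes (0.30), stem cells (0.59) and DNA replication (0.43). With the GC and length trend taken out, Ikzf1 (-0.35), Tcf3 (-0.011), Vpreb1 (0.26), Cd79a (0.40), Csf2rb (-0.12), Cybb (-0.027), Prg2 (1.57) and the medians of the BCL2 family (-0.090) and DNA methylation (-0.77) turned. With CLP and GMP libraries alone, Hba-a2 (-0.083) and the medians of the pre-B (-0.025) and histone acetylation lists (-0.18) turned. The cause was not tested. The labels' replicate numbers did not pair the libraries: same-numbered libraries correlated at -0.126, -0.0351 and 0.0685 over 8619 genes, and not every library correlated best with its own number. With a replicate block on CLP and GMP libraries alone, 7368 genes were higher and 6260 lower, against 7407 and 6316 without it; Hba-a2 (-0.085) and the medians of the pre-B (-0.011) and histone acetylation lists (-0.18) turned in this paired fit. With the replicate block and the GC and length trend taken out, 4883 genes were higher by 2-fold or more, and Ikzf1 (-0.31), Tcf3 (-0.21), Vpreb1 (0.50), Cd79a (0.51), Csf2rb (-0.11), Prg2 (1.81) and the medians of the BCL2 family (-0.10), homing (-0.043) and DNA methylation lists (-0.80) turned. Depth limits the genes with 3 or fewer counts in a population, given as bounds or with counting intervals.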
